A study of Mus musculus with 16 samples.

Results

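Among 77985 long non-coding RNA (lncRNA) transcripts counted in mouse white fat, 217 carried an identifier that begins with MSTRG, the default prefix that a transcript assembler gives to structures it builds from the reads themselves. These 217 transcripts, in 176 loci, were all taken, with no measured value used in the choice. The other transcripts had identifiers of the annotation databases NONCODE (67443) and Ensembl (10325). The fat was the epididymal depot of male C57BL/6J mice bought at 6 weeks of age and about 22 g. 4 groups of 4 libraries were compared: mice on a normal diet; mice on a high-fat diet (HFD, 60% fat), which had been given for 8 weeks when treatment began; HFD mice then given metformin for 6 weeks; and HFD mice then given resveratrol for 6 weeks. Metformin is a glucose-lowering drug and resveratrol a plant polyphenol. The labels do not say whether each library came from a separate animal, so a p-value here reflects variation among libraries, which may be technical. 2 of the 16 count columns matched a group but no single library title, and they are called HFD unmatched and metformin unmatched.

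LncRNAs are transcripts with no long reading frame. Some act on the gene beside them, some act as scaffolds for proteins, and for many no function is known. In fat, lncRNAs are known among the regulators of adipocyte differentiation and of macrophage activation. A transcript found only by assembly can be a gene missing from the databases, an unannotated isoform, an unspliced piece of an intron or a readthrough product of neighbouring genes. The tables give each transcript's outer positions, length and count, but neither its strand nor its exons, so its reads and those of an overlapping gene cannot be told apart.

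The depot lies against the epididymis, and 6 libraries are called tract-rich here, by a rule on ciliated-cell markers (over 3 times their median over the 16 libraries) or on Crisp1 (above 1000 CPM). Expression is given as CPM, the count scaled by the library's mRNA-table total (counts per 1000000), with trimmed-mean (TMM) factors except in the marker sums. Summed markers of motile ciliated epithelium reached 539 to 1514 CPM in normal diet 2, metformin unmatched, metformin 2, metformin 4 and resveratrol 2, and 14.4 to 32.4 CPM in 10 other libraries. In resveratrol 4 they reached 157 CPM. There Crisp1, a secretory gene of the epididymis, reached 12130 CPM, and 11 adipocyte markers summed to 1053 CPM against 16810 to 33880 CPM elsewhere. Resveratrol 4 was left out of the 15-library fit for that reason and enters only where all 16 libraries are named. The 10 libraries that are not tract-rich by this rule also held some tract RNA. Crisp1 was at 15.2 to 16.3 CPM in all 4 metformin libraries, metformin 1 included, and at 0.178 CPM or less in the 11 libraries left. Seminal vesicle markers summed to 1111 CPM in normal diet 4, 255 CPM in normal diet 2, 40 CPM in normal diet 1 and 4.58 CPM or less in the other 13. Spermatogenic markers summed to 2624 CPM in metformin 2, 1043 CPM in resveratrol 4 and 43.4 CPM or less in the other 14. Markers of retina (2.05 to 15.1 CPM) and skeletal muscle (3.1 to 112 CPM), tissues that the protocol text also names, were low in all 16 libraries. Summed macrophage markers were 3167 to 3756 CPM in HFD 1, 2 and 3, 993 CPM in HFD unmatched and 244 to 1333 CPM in the other 12. In bulk tissue, fewer cells of a type and less RNA per cell cannot be told apart.

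Of the 217 transcripts, 70 spanned at least part of a RefSeq start window, the 300 bases from 250 before to 50 after an annotated start (build GRCm38.p6), and 147 spanned none. The 4 windows that follow are shown because each lies in an assembled transcript whose values are given further on. Capitals mark the bases inside the assembled span. All are on the plus strand of their gene: Gm40180 (chr3:152197321-152197620) and Tshz2 (chr2:169632259-169632558) lay wholly inside MSTRG.38045.1 and MSTRG.34296.1, Gm40218 (chr4:106324179-106324478) had 285 bases inside MSTRG.40067.1, and Slc7a10 (chr7:35186135-35186434) had 68 bases inside MSTRG.50172.1.
Gm40180: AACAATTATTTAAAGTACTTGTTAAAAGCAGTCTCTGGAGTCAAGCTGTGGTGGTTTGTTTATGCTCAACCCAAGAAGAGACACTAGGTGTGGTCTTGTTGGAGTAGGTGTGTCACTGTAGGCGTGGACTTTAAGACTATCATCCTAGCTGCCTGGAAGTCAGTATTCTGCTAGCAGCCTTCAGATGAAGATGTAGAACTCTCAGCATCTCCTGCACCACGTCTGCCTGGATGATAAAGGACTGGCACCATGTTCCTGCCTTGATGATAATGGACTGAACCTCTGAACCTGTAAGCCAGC
Tshz2: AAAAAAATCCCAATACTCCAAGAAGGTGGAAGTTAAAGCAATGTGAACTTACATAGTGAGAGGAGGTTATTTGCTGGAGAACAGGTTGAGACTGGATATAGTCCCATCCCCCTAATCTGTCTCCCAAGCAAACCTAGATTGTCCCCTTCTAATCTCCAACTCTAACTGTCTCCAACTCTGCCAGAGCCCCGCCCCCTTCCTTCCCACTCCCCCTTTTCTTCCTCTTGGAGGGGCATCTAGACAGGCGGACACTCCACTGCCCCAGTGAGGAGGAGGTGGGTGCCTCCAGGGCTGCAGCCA
Gm40218: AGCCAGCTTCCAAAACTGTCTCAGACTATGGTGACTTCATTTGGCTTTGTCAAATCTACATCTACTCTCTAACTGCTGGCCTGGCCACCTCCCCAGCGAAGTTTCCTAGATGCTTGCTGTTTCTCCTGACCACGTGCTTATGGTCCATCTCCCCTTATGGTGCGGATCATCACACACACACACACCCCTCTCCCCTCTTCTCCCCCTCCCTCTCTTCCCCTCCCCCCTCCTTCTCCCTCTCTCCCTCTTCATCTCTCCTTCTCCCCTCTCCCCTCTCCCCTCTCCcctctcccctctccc
Slc7a10: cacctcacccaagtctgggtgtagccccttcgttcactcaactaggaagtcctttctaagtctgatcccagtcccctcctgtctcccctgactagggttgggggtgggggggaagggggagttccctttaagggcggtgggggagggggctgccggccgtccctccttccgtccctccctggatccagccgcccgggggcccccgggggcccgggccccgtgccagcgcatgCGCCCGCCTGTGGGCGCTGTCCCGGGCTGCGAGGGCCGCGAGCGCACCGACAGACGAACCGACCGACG
3 short promoter motifs were searched on both strands: the TATA box TATAAA, the CCAAT box CCAAT and the GC box GGGCGG. Over all 32851 windows, 13.6% held the TATA box, 37.4% the CCAAT box, 35.7% the GC box and 32.7% none of them. The Slc7a10 window held 2 GC boxes and the Tshz2 window 1 GC box and 1 CCAAT box, while the windows of Gm40180 and Gm40218, both lncRNA genes in RefSeq, held none. A further window, of Ubd (chr17:37193642-37193941, plus strand), ended 12 bases before the start of MSTRG.25139.1. It is shown because that transcript changed both with HFD and with metformin. Capitals there mark 2 matches to the CCAAT box, both on the minus strand.
Ubd: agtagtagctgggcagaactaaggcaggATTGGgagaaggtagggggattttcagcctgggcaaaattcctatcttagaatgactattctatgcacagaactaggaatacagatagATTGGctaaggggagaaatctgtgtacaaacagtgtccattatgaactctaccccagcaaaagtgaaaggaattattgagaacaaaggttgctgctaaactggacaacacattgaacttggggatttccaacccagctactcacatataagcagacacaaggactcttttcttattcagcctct

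The assembled transcripts were about as long as annotated lncRNAs, spanned more genome and had higher levels per length. Their length ran from 207 to 18793 bases with a median of 1204, against 1220 for NONCODE and 1079 for Ensembl transcripts. Their median genomic span was 8720 bases, against 1910 and 3285. Length made up a median of 11.6% of the span, against 100% for NONCODE and 46.3% for Ensembl, so most of a typical assembled span was not part of the transcript. In 83 transcripts length was under 5% of the span, and in 26 it was over 90%. The median level was 1.89 CPM per kb, and 67.3% of the transcripts reached 1 CPM per kb. The annotated sets had medians of 0.118 and 0.113 CPM per kb, with 15.9% and 16.3% at 1 or more. These are descriptions, since a transcript can be assembled only where it has reads.

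**Figure D1:**
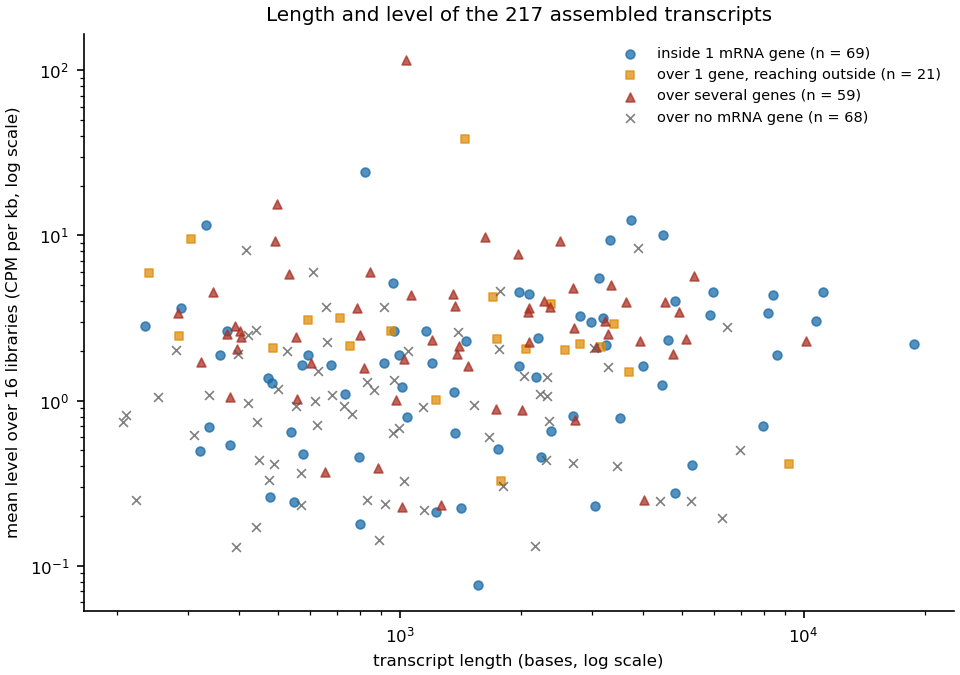
Transcript length in bases (x, log scale) and mean level over all 16 libraries in CPM per kb (y, log scale) for the 217 assembled transcripts, with a marker for each position class. Levels spread over the whole range of lengths, 7 transcripts lie at 10 CPM per kb or more, and those over no mRNA gene (crosses) have the lowest median, 0.929 CPM per kb.

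By position, 69 transcripts lay inside 1 gene of the mRNA table, 21 overlapped 1 gene and reached outside it, 59 spanned several genes and 68 overlapped none. A minimum overlap of 50% of the transcript's length in place of 1 base left 146 of the 149 overlapping transcripts. Those inside 1 gene had a median span of 4173 bases, of which length made up 54.4%. Those over several genes had a median span of 163933 bases, of which length made up 0.833%, and the widest of them spanned 887854 bases. The 68 outside mRNA genes were shorter (median 848.5 bases), and the nearest gene was 58 to 979356 bases away with a median of 26455. Of these 68, 13 had a gene within 10 kb and 13 had none within 100 kb. A lncRNA of NONCODE or Ensembl overlapped 108 of the 217, and a RefSeq lncRNA gene overlapped 69. A RefSeq protein-coding gene overlapped 149 and a RefSeq pseudogene 54. Some of the 68 overlapped a RefSeq protein-coding gene, MSTRG.25931.2 and MSTRG.9648.1 among them. No mRNA gene, annotated lncRNA or RefSeq gene overlapped 37 of the 217.

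3 regions with clusters of 6 or more transcripts are described here. On chromosome 13 (12741106 to 13286217), 13 transcripts in 8 loci covered Prl2c2 and Prl2c3, prolactin-family genes with near-identical copies. On chromosome 8 (19680485 to 20589259), 13 in 5 loci covered 6820431F20Rik, 4930467E23Rik and several Gm gene models. On chromosome 4 (41862057 to 42696446), 6 in 5 loci covered chemokine genes such as Ccl21b and Ccl27b and members of the Fam205a family. These 3 regions hold near-identical gene copies, so how reads were shared among copies makes those counts uncertain.

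A few transcripts held much of the signal. The 10 with the most counts took 37.2% of the 360686 counts over all 16 libraries, and 71 transcripts had a mean below 1 CPM per kb. MSTRG.29422.1 (chr19:40559725-40624611, 1039 bases), over Aldh18a1, a proline synthesis enzyme, Tctn3 and Entpd1, had the highest mean level, 116 CPM per kb. Its CPM was 104 to 152 in the normal diet libraries, 96.5 to 133 in HFD, 95.2 to 140 with metformin, 127 to 153 in resveratrol 1 to 3 and 29.9 in resveratrol 4. The 4 groups overlapped, and no comparison passed the test. MSTRG.54564.1 (chr8:68867607-68906970), over Lpl, the lipoprotein lipase that frees fatty acids for uptake into fat cells, had a mean of 38.6 CPM per kb. Its level was 59, 58.9, 44.5 and 45.6 CPM on the normal diet and 30.7, 64.6, 77.8 and 99.2 CPM on HFD, with the normal diet values inside the HFD range. In resveratrol 4, with little adipocyte RNA, it was 1.61 CPM.

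MSTRG.102.4, inside Sntg1, a syntrophin gene, followed with 24.1 CPM per kb. It was at 38.1, 26.5, 27.4 and 27.6 CPM on the normal diet and 26, 25.3, 31.9 and 32.2 CPM on HFD. With metformin it was at 15.7, 19, 8.37 and 3 CPM, and in resveratrol 1 to 3 at 6.64, 4.83 and 22.9 CPM. Each of the 7 drug-treated libraries lay below the 8 without a drug, yet the difference from HFD did not pass the test with either drug (log2 fold change -1.32 ± 0.53 SE, edgeR adjusted p = 0.129, with metformin, and -1.33 ± 0.58, adjusted p = 0.214, with resveratrol). Sntg1 itself was at 0.576 to 5.18 CPM in these 15 libraries. Another transcript of the locus, MSTRG.102.5, differed 12.7-fold between normal diet libraries, 17-fold on HFD, 19.9-fold with metformin and 7.13-fold in resveratrol 1 to 3. These ratios take the lowest library as at least 3 counts. The sum of the locus was not tested. The other 7 of the 10 highest levels were 9.32 to 15.6 CPM per kb. These were MSTRG.23092.2 (over Cmss1 and Filip1l), MSTRG.23277.9 (Cyyr1), MSTRG.49376.5 (Zscan18, a zinc-finger gene), MSTRG.8149.24 (Ebf1), MSTRG.38932.1 (the chromosome 4 copies with Il11ra2), MSTRG.50172.1 (Slc7a10) and MSTRG.13140.1 (Tshr, the thyrotropin receptor gene). MSTRG.50172.1 covers the start of Slc7a10, an amino acid transporter known as a marker of white adipocytes, and its 68 capital bases are in the Slc7a10 line of the sequences. It was at 1.3 to 5.59 CPM in the 15 libraries and at 0 in resveratrol 4, where Slc7a10 was at 7.6 CPM against 137 to 317 CPM elsewhere. The longest transcript, MSTRG.9546.1 (18793 bases inside Myo1d, a myosin gene), was at 27.3 to 52.1 CPM in all 16 libraries. The shortest, MSTRG.5576.1 (207 bases), was at 2.39 CPM in resveratrol 1, 0.0524 CPM in HFD 3 and 0 in 14 libraries.

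Some abundant transcripts differed far more between libraries of 1 group than between groups. Over 132 transcripts with at least 10 counts in a library of every group, the highest library of a group was a median of 1.74 times its lowest, taking the lowest as at least 3 counts. That ratio was over 5 in every group for 7 transcripts and under 2 in every group for 46. The same counts over all lncRNA transcripts were not determined. MSTRG.8149.24 lies inside Ebf1, a transcription factor gene of adipocyte and B-cell differentiation. It was at 9.5, 107, 109 and 7.77 CPM on the normal diet, 8.96, 5.45, 81.7 and 58.5 CPM on HFD and 7.86, 79.2, 64 and 5.95 CPM with metformin. With resveratrol it was at 123, 7.18, 39.3 and 6.73 CPM. MSTRG.8149.23 has the same outer positions (chr11:44666721-44671389) and is 4474 bases long against 4478. It had counts in resveratrol 3 alone, at 89.1 CPM. The sum of the pair thus lay either at 5.45 to 9.5 CPM or at 58.5 to 128 CPM, while Ebf1 in the mRNA table stayed at 177 to 349 CPM in the 15 libraries.

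MSTRG.23277.9, inside Cyyr1, a gene for a small membrane protein, had the same kind of spread with other libraries high. It was at 118, 3.05, 1.56 and 81.7 CPM on the normal diet, 79.8, 0.865, 3.24 and 38.5 CPM on HFD and 99.7, 66.5, 46 and 2.95 CPM with metformin. With resveratrol it was at 71, 17.8, 101 and 7.33 CPM. A shorter transcript of that locus, MSTRG.23277.12, was at 34.7 CPM in resveratrol 2 and at 0.154 CPM or less in the other 15. The pair thus summed to 52.5 CPM in resveratrol 2, beside 71 and 101 CPM in resveratrol 1 and 3. Cyyr1 itself was at 42.5 to 132 CPM in the 15 libraries. MSTRG.7536.2 was chosen after its values were seen, because the smallest of its 4 group ratios (28.4) was the largest such value. It overlapped no gene of the mRNA table. Its level was 4.38 to 10.6 CPM in 7 of the 15 libraries and 1.15 CPM in resveratrol 3. In the other 7 it was 0.207 CPM or less. High and low libraries occurred in every group for these 3 transcripts, though the summed Cyyr1 pair had no low library in resveratrol 1 to 3. No comparison of the 3 transcripts passed the test.

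**Figure D2:**
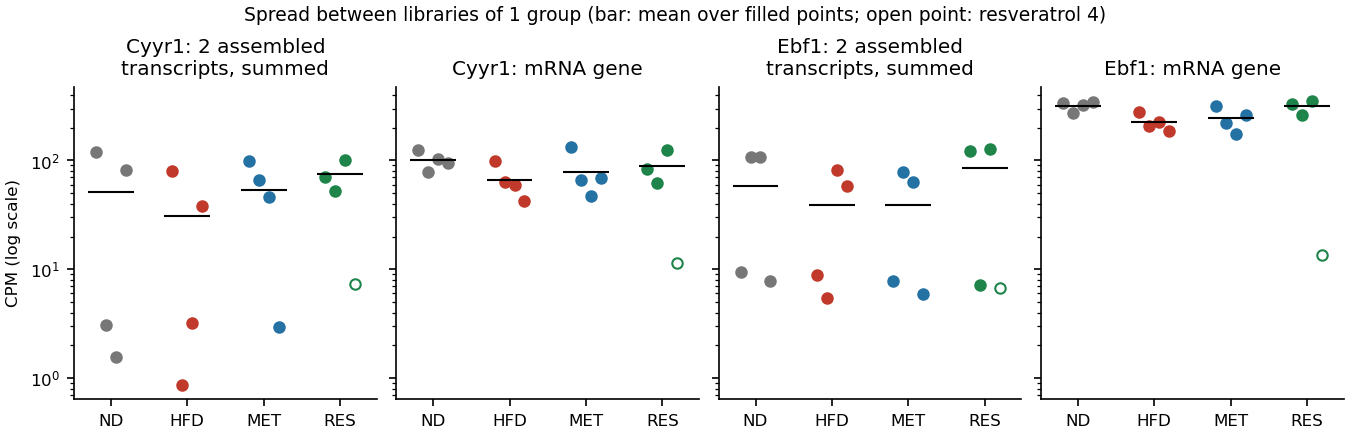
CPM by library on a log scale for the pair of assembled transcripts inside Cyyr1 and inside Ebf1 (each pair summed) and for the mRNA gene of each, with bars for group means over the filled points and an open point for resveratrol 4. Among the filled points, the Ebf1 pair falls into high and low libraries in every group. The Cyyr1 pair does so on the normal diet, on HFD and with metformin. In resveratrol 1 to 3 the Cyyr1 pair has no low library (52.5 to 101 CPM), and the Cyyr1 gene is at 61.7 to 124 CPM. Across all the filled points, each gene varies less than its pair.

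The first question was what HFD did to the assembled transcripts. More were lower than higher on HFD, at about the rate of all lncRNAs. Of the 217, 152 passed the filter on low counts in the 15 libraries, and edgeR's quasi-likelihood test was run over all 24046 lncRNA features that passed, with Benjamini-Hochberg adjustment and a threshold of 0.05. On HFD 29 of the 152 fell, beside 20.9% of all features, and 4 rose, beside 2.35%. In either direction this was 33 of 152 against 23.3% of all features. The median log2 fold change was -0.44 over the 152 and -0.47 over all features. With the lncRNA table's own totals and TMM factors in place of those of the mRNA table, the median of all features was -0.04. Under that scaling 9 of the transcripts fell and 7 rose, beside 892 features that fell and 1290 that rose. Of the 33, 13 stayed past the threshold and 32 kept their sign.

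3 transcripts passed the test in the same way with HFD, with metformin and with resveratrol: lower on HFD, and higher with each drug than on HFD alone. The same HFD libraries enter all 3 comparisons, so the fall and both rises are not independent. The median log2 fold change of all features went the same way, at -0.47 with HFD, 0.31 with metformin and 0.32 with resveratrol. The share of all features that passed in this way was not determined. MSTRG.47888.1 (chr6:93231140-93234266, 3035 bases) overlapped no mRNA gene, the nearest, Gm5313, being 93150 bases away, but overlapped 1 RefSeq lncRNA. It was at 11, 11.6, 9.57 and 9.77 CPM on the normal diet and 4.42, 2.24, 3.49 and 1.52 CPM on HFD. It was at 5.38, 7.45, 6.6 and 5.79 CPM with metformin and 6.64, 6.08 and 6.66 CPM in resveratrol 1 to 3. The HFD libraries lay below all others and the treated ones between HFD and normal diet. The log2 fold change on HFD was -1.84 ± 0.25 (SE; adjusted p = 0.000523).

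MSTRG.38045.1 (chr3:152196909-152199201) lies inside Dnajb4, a heat-shock co-chaperone gene, and holds the start of Gm40180 whose sequence is printed in capitals. It was at 7.41, 5.99, 4.95 and 6.83 CPM on the normal diet and 3.33, 2.39, 2.41 and 1.83 CPM on HFD. With metformin it was at 4.21, 6.63, 6.42 and 5.84 CPM, and in resveratrol 1 to 3 at 5.62, 4.63 and 5.95 CPM. No HFD library reached the lowest value of any other group. Its log2 fold change was -1.33 ± 0.20 on HFD (adjusted p = 0.000894). Dnajb4 stayed at 24.7 to 45 CPM, with a log2 fold change of -0.24 on HFD (adjusted p = 0.333). MSTRG.11319.1 (chr12:4391826-4400612) lies inside Ncoa1, a nuclear receptor coactivator gene. It fell from 13.5, 16.2, 16.3 and 18.2 CPM on the normal diet to 6.78, 7.74, 6.42 and 5.03 CPM on HFD (log2 fold change -1.31 ± 0.13, adjusted p = 0.000138). It was at 10.5, 10.8, 10.5 and 9.3 CPM with metformin and 11.4, 12.4 and 11.8 CPM in resveratrol 1 to 3. No 2 groups overlapped. Ncoa1 also fell on HFD (log2 fold change -0.39, adjusted p = 0.0241). All 3 falls on HFD held in each of the 15 fits without 1 library, while none of their rises with a drug did.

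**Figure D3:**
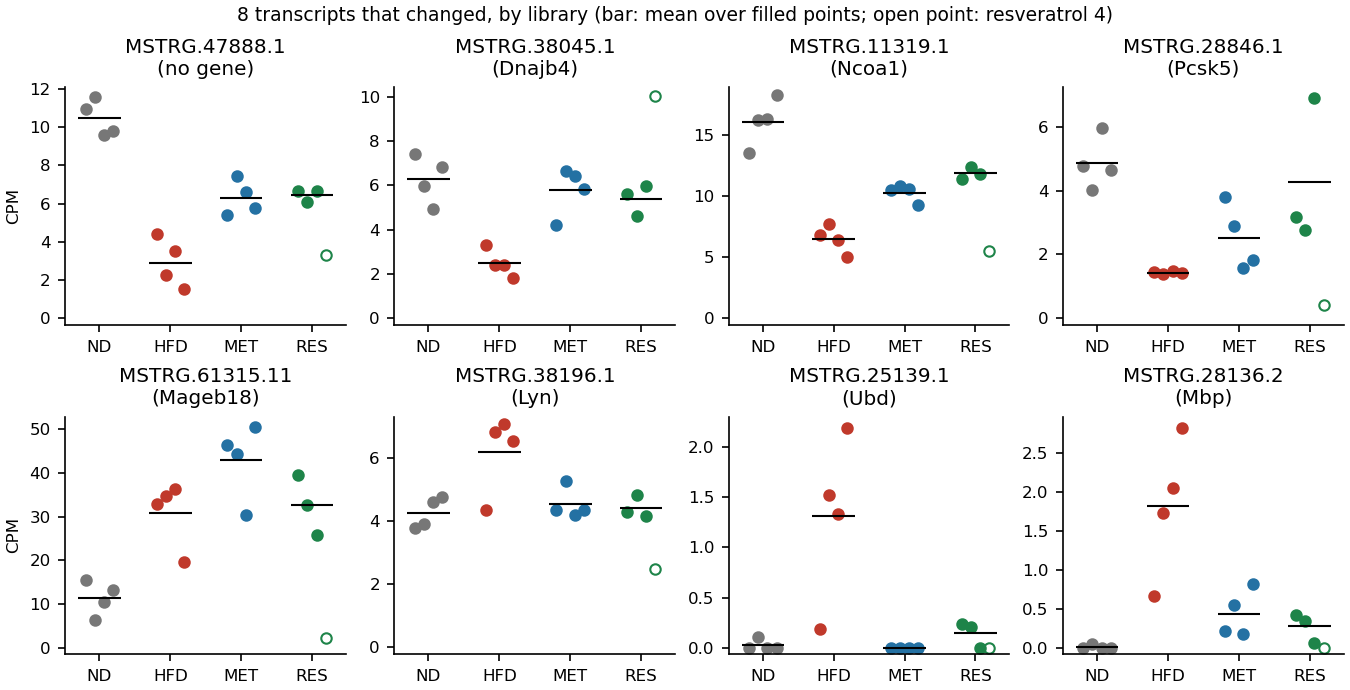
CPM by library in the normal diet (ND), HFD, metformin (MET) and resveratrol (RES) groups for 8 transcripts that changed, with bars for means over the filled points and an open point for resveratrol 4. In the top row the HFD libraries lie below the normal diet libraries, and in the bottom row most HFD libraries lie above them.

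MSTRG.28846.1, inside Pcsk5, a proprotein convertase gene, was at 4.01 to 5.97 CPM on the normal diet and at 1.45, 1.37, 1.49 and 1.41 CPM on HFD. Its log2 fold change was -1.76 ± 0.31 (adjusted p = 0.00208), and Pcsk5 fell with it (-1.17, adjusted p = 0.000934). Resveratrol 1 to 3 were at 3.17, 2.76 and 6.91 CPM, above HFD by a log2 fold change of 1.58 ± 0.33 (adjusted p = 0.0343). MSTRG.27889.1, at Mc2r, the receptor for corticotropin, was at 2.55, 1.47, 1.56 and 3.71 CPM on the normal diet and 0.605, 0.611, 0.462 and 0.576 CPM on HFD, a fall of 2.03 on the log2 scale (adjusted p = 0.0016). Mc2r itself had a log2 fold change of 0.48 (adjusted p = 0.144), opposite in sign and short of the threshold. MSTRG.42369.1, inside Kmt2e, a chromatin regulator gene of the lysine methyltransferase family, was at 31.2 to 37.9 CPM on the normal diet and 18.1 to 23.1 CPM on HFD. It fell by 0.83 on the log2 scale (adjusted p = 0.000563), and Kmt2e by 0.58 (adjusted p = 0.000417). MSTRG.18121.1 overlapped no gene of the mRNA table and lay 3747 bases from Haus4. It was near the counting limit, at 0.323 to 1.82 CPM on the normal diet and 0 to 0.121 CPM on HFD (adjusted p = 0.00458).

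Among the rest of the 12 largest falls, MSTRG.59873.1 (Ctdspl, a phosphatase gene) had a log2 fold change of -1.14 and an adjusted p of 0.0472. The threshold was lost without any 1 of 10 libraries (normal diet 1, 2, 3 or 4, HFD 1, 2 or 3, metformin 2 or 4, or resveratrol 1). MSTRG.34296.1, over Gm34294 and the start of Tshz2 printed with the sequences, was at 3.94 to 6.41 CPM on the normal diet and 2.25 to 3.34 CPM on HFD (-0.92 ± 0.25, adjusted p = 0.018, lost without HFD 3). MSTRG.25479.1 (Kat2b, an acetyltransferase gene) fell by 0.87 and MSTRG.28640.1 (the region of Slc3a2, an amino acid transporter subunit gene) by 1.02. MSTRG.53654.2 and MSTRG.53625.81, in the chromosome 8 cluster, fell by 1.05 and 0.96. In that cluster 7 of 12 tested transcripts fell, beside 20.9% of all features, but they share loci, spans and near-identical copies and are not separate measurements. In the clusters on chromosomes 13 and 4, 0 of 11 and 0 of 4 tested transcripts fell. MSTRG.40067.1, over Usp24 and reaching outside it, spans most of the Gm40218 window printed with the sequences and fell by 0.82 on the log2 scale (adjusted p = 0.00527). It is named for its sequence and not for its rank.

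4 transcripts rose on HFD. MSTRG.61315.11 (chrX:92504486-92512714, 8159 bases), inside Mageb18, a melanoma-antigen family gene, was at 15.4, 6.25, 10.3 and 13.1 CPM on the normal diet and 32.9, 34.7, 36.3 and 19.6 CPM on HFD. The log2 fold change was 1.46 ± 0.27 (adjusted p = 0.00264). It stayed high with both drugs, at 46.4, 44.2, 30.3 and 50.5 CPM with metformin and 39.6, 32.6 and 25.7 CPM in resveratrol 1 to 3, and no treated library overlapped the normal diet. Mageb18 rose as well, by a log2 fold change of 2.09 (adjusted p = 0.0019). MSTRG.38196.1 spans Lyn, a Src-family kinase of myeloid cells, with Tgs1 and Tmem68. It was at 3.78 to 4.77 CPM on the normal diet, 6.82, 7.09 and 6.54 CPM in HFD 1 to 3 and 4.36 CPM in HFD unmatched (log2 fold change 0.54 ± 0.16, adjusted p = 0.0244). The threshold was lost without normal diet 1 or 2 or HFD 1, 2 or 3, with an adjusted p of up to 0.0667.

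MSTRG.25139.1 (chr17:37193954-37196031) lies inside Ubd, which encodes a ubiquitin-like protein induced by inflammatory cytokines, 12 bases past the printed Ubd window. It was at 0, 0.102, 0 and 0 CPM on the normal diet and 0.182, 1.53, 1.34 and 2.2 CPM on HFD (adjusted p = 0.00978). Ubd was at 0.648 to 0.914 CPM on the normal diet and 8.29, 47.9, 43.1 and 69.5 CPM on HFD. MSTRG.28136.2, inside Mbp, a gene of myelin and, in a longer form, of immune cells, was at 0, 0.0508, 0 and 0 CPM on the normal diet and 0.666, 1.73, 2.06 and 2.83 CPM on HFD (adjusted p = 0.000641). Mbp itself was at 42.9 to 60.4 and 62.5 to 68.3 CPM, with a log2 fold change of 0.32 (adjusted p = 0.0817). For MSTRG.38196.1, MSTRG.25139.1 and MSTRG.28136.2, HFD unmatched was the lowest HFD library, as it was for the macrophage markers (993 CPM against 3167 to 3756). MSTRG.25139.1 and MSTRG.28136.2 had few counts outside HFD and entered the test mainly through the HFD libraries. The part of macrophage content in these rises was not tested.

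Of the 152, 101 overlapped an mRNA gene that was also tested in the same design, 89 genes in all. Among these 101, 30 transcripts passed the test on HFD. Their gene passed in the same direction for 13 and did not pass for 17, and for none did it pass in the opposite direction. These counts hold for the mRNA table's scaling, under which the median log2 fold change of all lncRNA features was -0.47. With the lncRNA table's own scaling that median was -0.04, and the pairs were not counted there. The same counts over all lncRNA features that overlap a gene were not determined. Across the 101, log2 fold changes of transcript and gene had a Pearson r of 0.69 and a Spearman rho of 0.45 on HFD. The points share libraries, some share a gene, and reads of an overlapping pair may count for both, so these are descriptions. By position, 14 of 47 tested transcripts inside 1 gene passed, beside 27.2% of all features so placed. Of those that reached outside 1 gene 6 of 20 passed (15.2% of all features so placed), of those over several 11 of 53 (17.7%) and of those over none 2 of 32 (20.1%).

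**Figure D4:**
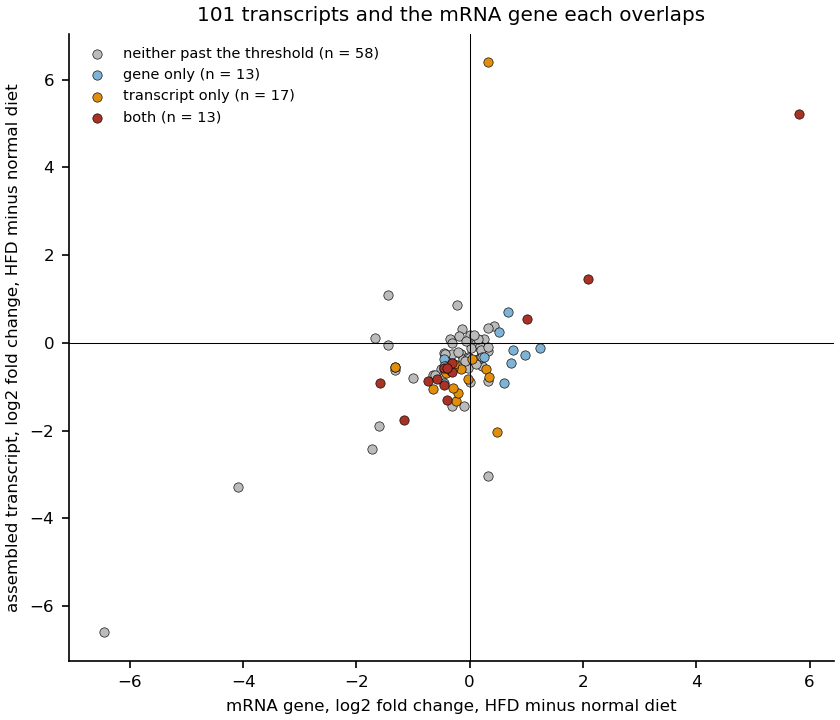
Log2 fold change, HFD minus normal diet, of 101 assembled transcripts (y) against the mRNA gene each overlaps (x), coloured by which of them passed an adjusted p of 0.05. Both passed for 13 pairs, the transcript alone for 17, the gene alone for 13 and neither for 58. Both axes use the scaling of the mRNA table.

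The next question was what each drug did on top of HFD. Metformin changed 7 of 152 transcripts, beside 5.15% of all features. 6 were higher, beside 4.40%, and 1 lower, beside 0.753%. The 6 were the 3 described above, MSTRG.18121.1, MSTRG.42369.1 and MSTRG.55281.4 (Papd5, a non-canonical poly(A) polymerase gene). MSTRG.38045.1 rose by a log2 fold change of 1.21 ± 0.20 (adjusted p = 0.0151), MSTRG.47888.1 by 1.11 ± 0.25 (0.0298) and MSTRG.11319.1 by 0.66 ± 0.13 (0.0245). MSTRG.42369.1 and MSTRG.55281.4 rose by 0.42 and 0.48, close to the threshold (adjusted p = 0.0478 and 0.0435). MSTRG.18121.1 was at 0.414 to 0.884 CPM with metformin against 0 to 0.121 CPM on HFD (adjusted p = 0.0366). The transcript that fell was MSTRG.25139.1 at Ubd, with 0 counts in all 4 metformin libraries. With 3 counts over the pooled group as the limit that 0 allows, it was at 0.0432 CPM or less with metformin. The pooled HFD level, 1.35 CPM, was at least 31.3-fold higher. That bound covers counting error only, not the spread among HFD libraries, where HFD unmatched was the lowest. The edgeR test of metformin against HFD, which does not test that bound, gave an adjusted p of 0.0259. Ubd was at 1.36 to 4.44 CPM with metformin. Over all features the median log2 fold change with metformin was 0.31. With the lncRNA table's own totals and TMM factors it was 0.03. Under that scaling 1 transcript was higher and 2 were lower, beside 129 features that were higher and 375 that were lower. Of the 7, MSTRG.38045.1 and MSTRG.25139.1 stayed past the threshold there and the others did not.

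3 of the 4 metformin libraries were rich in ciliated-cell transcripts and no HFD library was. The 10 libraries that were not rich leave 1 metformin library, so they cannot show whether the 7 changes hold without ciliated-cell transcripts. The median log2 fold change for metformin there was 0.29 over the transcripts tested, beside 0.25 over all features. With the ciliated score as a covariate 1 transcript passed for metformin, beside 119 of 24046 features. It was MSTRG.11444.7, which was not among the 7. None passed without HFD 2 or HFD 3, beside 47 of 23654 and 17 of 23703 features. Of the fits without 1 library, MSTRG.38045.1 was past the threshold in 13 of 15, MSTRG.11319.1 in 12, MSTRG.47888.1 in 10, MSTRG.18121.1 in 8, MSTRG.55281.4 in 3 and MSTRG.42369.1 in 2. MSTRG.25139.1 lost the call without metformin 2, and without HFD 1, 2 or 3 it failed the filter on low counts and was not tested. The part of tract tissue in these 7 changes was not tested further.

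Resveratrol changed 4 of 152 transcripts, beside 2.23% of all features. All 4 were higher, beside 1.95%, and none lower, beside 0.283%. MSTRG.38045.1 rose by a log2 fold change of 1.12 ± 0.21 (adjusted p = 0.0278), MSTRG.47888.1 by 1.15 ± 0.26 (0.04), MSTRG.11319.1 by 0.87 ± 0.14 (0.0243) and MSTRG.28846.1 by 1.58 (0.0343). The 2 drugs share the HFD libraries, so the same 3 names in both lists are not independent. No transcript passed for resveratrol without HFD 1, 2 or 3 or resveratrol 1 or 3. Over all features 4, 1, 3, 4 and 17 passed in turn. In the 10 libraries that were not tract-rich no transcript passed either, beside 25 of 26076 features. There 41 of 158 transcripts had an unadjusted edgeR p below 0.05, beside 4798 of 26076 features. MSTRG.47888.1 was past the threshold in 4 of the 15 fits without 1 library, and each of the other 3 in 10 of 15. Over all features the median log2 fold change with resveratrol was 0.32, and 0.03 with the lncRNA table's own totals and TMM factors. Under that scaling no transcript passed, beside 25 features that were higher and 70 that were lower.

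Between metformin and resveratrol no transcript of the 152 passed the edgeR test, as none of all features did (0%). An unadjusted edgeR p below 0.05 was found for 9 of the 152, beside 1259 of 24046 features. DESeq2 called 1 of 149 transcripts, beside 38 of 23877 features. The smallest p-values with higher levels on metformin belonged to MSTRG.12303.1 (Srp54a, a signal recognition particle gene), MSTRG.18121.1 and MSTRG.55281.4, and with lower levels to MSTRG.23774.2 (Zdhhc14, a palmitoyltransferase gene), MSTRG.25139.1 and MSTRG.17274.10 (the Plac9a region), with an adjusted p of 0.944 or 0.95. MSTRG.23774.2 was at 5.21 to 8 CPM with metformin and 15.7, 10.1 and 8 CPM in resveratrol 1 to 3. In the joint test of any difference among the 4 groups 22 transcripts passed, beside 12.0% of all features.

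The last question was which transcripts belonged to the tract-rich libraries. A transcript was called specific where a tract-rich library held at least 10 counts and at least 10 times the CPM of the highest of the 10 other libraries, with no count in any of those 10 taken as 3 counts in the shallowest of them (0.232 CPM). This used levels and carries no test. 48 of the 217 (22.1%) met it, beside 2897 of all 77985 lncRNA transcripts (3.71%). Of the 48, 47 were highest in resveratrol 4, beside 1382 of the 2897. Among transcripts with at least 10 counts in a tract-rich library the shares were 23.4% of 205 and 8.25% of 35130. An assembled transcript has to have reads in some library, so the shares are a description. The limit of 3 counts applied only where there was no count, so 1 count gave a larger ratio than none. With 3 counts as the lowest level for every transcript, an alternative chosen after seeing the data, 45 of the 217 (20.7%) and 2.45% of all met the rule. MSTRG.42909.1, MSTRG.61338.1 and MSTRG.62256.1, each with a highest level of 0.0772 CPM in the 10 libraries, no longer did. Of the 48, MSTRG.23277.12 of the Cyyr1 locus was not highest in resveratrol 4. It was high in resveratrol 2 and at 0 in the other tract-rich libraries, so it met the rule through 1 library. Summed with MSTRG.23277.9 it was at 52.5 CPM in resveratrol 2. That sum was 71 and 101 CPM in resveratrol 1 and 3, which are not tract-rich. The 48 took 54.1% of the assembled-transcript counts in resveratrol 4 and 0.08% to 4.55% in the other 15 libraries. 20 of them had no count in the 10 other libraries, 43 of them failed the filter for the tests, and 28 overlapped no mRNA gene. Just inside the rule were MSTRG.9332.1 and MSTRG.40973.4 (ratios of 10.7 and 13.1), and just outside was MSTRG.58639.1 (9.98).

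MSTRG.52846.1 (chr7:131308555-131322133, 2096 bases), inside Cuzd1, a gene for a secreted CUB and zona-pellucida domain protein, was at 140 CPM in resveratrol 4. It was at 0.766 to 2.69 CPM in the 5 libraries rich in ciliated-cell transcripts, 0.276 CPM in metformin 1 and 0 in the other 9. Cuzd1 was at 10740 CPM in resveratrol 4, 63.9 to 99.7 CPM in those 5, 10.5 CPM in metformin 1 and 0.411 CPM or less in the other 9, the same order. MSTRG.33336.1, inside Pcsk2, a prohormone convertase gene, was at 88.8 CPM in resveratrol 4 and 0.177 CPM or less elsewhere, while Pcsk2 was at 10.2 CPM there. MSTRG.43641.1, 9655 bases from Gm7337, was at 55.5 CPM and MSTRG.22445.1, 11059 bases from the tight-junction gene Cldn1, at 50.5 CPM, both with no count in the 10 other libraries. MSTRG.3505.2, inside Smyd3, a lysine methyltransferase gene, was at 43.7 CPM and at 0.219 CPM or less elsewhere. Smyd3 was not raised there, at 20.4 CPM against 15.6 to 25.2 CPM. MSTRG.51724.1 (Chrdl2, a gene of the chordin family of BMP antagonists), MSTRG.2793.2 (1686 bases from Zfp648) and MSTRG.9836.1 (53979 bases from Ypel2) were at 20.1, 19.8 and 16 CPM. With 3 counts as the lowest level throughout, these 3 gave way among the 10 largest ratios to MSTRG.44556.1, MSTRG.33293.1 and MSTRG.20576.1, at 29.8, 22.1 and 20.8 CPM in resveratrol 4, and the other 7 stayed.

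MSTRG.25931.2 (chr17:74014907-74016727, 1771 bases), 979 bases from Srd5a2 as placed in the mRNA table, was high in all 6 tract-rich libraries. Its span overlapped 1 RefSeq protein-coding gene. Srd5a2 encodes a steroid 5-alpha reductase, which makes dihydrotestosterone in the male tract. The transcript was at 47.7 CPM in resveratrol 4, 22.1, 20.5, 16.1, 11.9 and 12 CPM in normal diet 2, metformin unmatched, 2 and 4 and resveratrol 2, and 0.157 CPM or less in the other 10. Srd5a2 was at 44.3 CPM, 11.1 to 17.2 CPM and 0.138 CPM or less in the same libraries. Of the 48, this transcript, MSTRG.52846.1 and MSTRG.23662.1, inside Igsf5, an immunoglobulin-superfamily gene, were higher in all 5 ciliated-rich libraries than in any of the 10 others. MSTRG.23662.1, chosen after its values were seen, was at 10.4 CPM in resveratrol 4, 1.98 to 3.71 CPM in those 5 and 0.239 CPM or less elsewhere. The other 45 did not separate all 5 of those libraries from the rest. Over all 217 transcripts, 8 were higher in all 5 than in any of the 10 others, a count not determined over all lncRNA transcripts. Some of these 8 thus did not meet the ratio rule. MSTRG.20530.1, chosen after its values were seen, was at 0.915 to 1.93 CPM in those 5 and at 0 in resveratrol 4 and the 10 others. Its ratio of 8.33, set by the limit for no count, fell short of 10. Resveratrol 4 held epididymal principal-cell markers at 19500 CPM beside its spermatogenic markers, and which of its tissues carried each transcript was not tested.

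**Figure D5:**
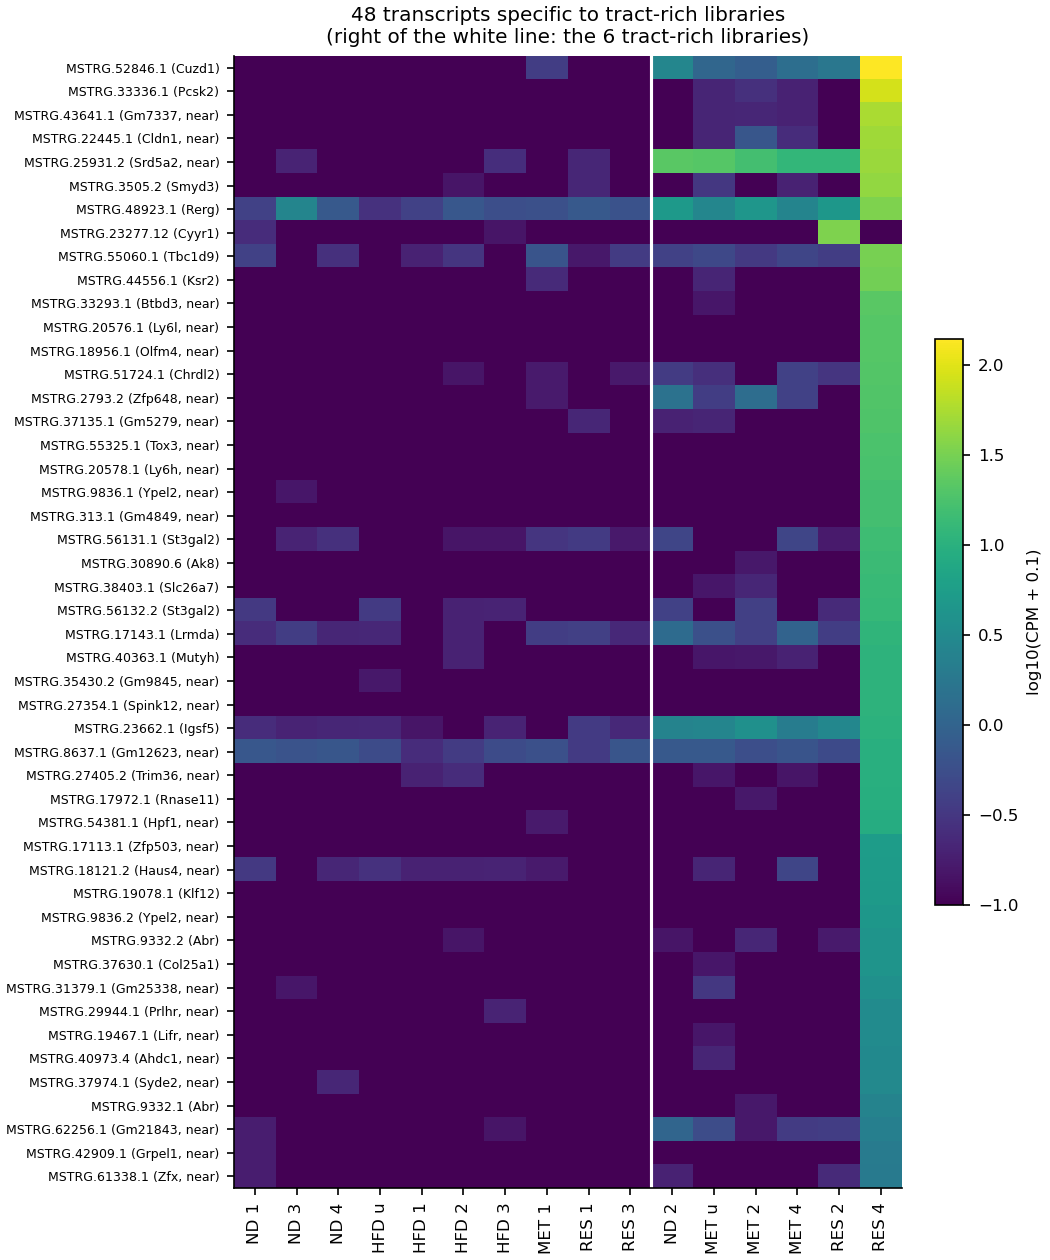
Level of the 48 tract-specific transcripts (rows, with the overlapping or nearest mRNA gene) in all 16 libraries (columns), coloured by log10(CPM + 0.1). Nearly every row is brightest in resveratrol 4 (RES 4, right), and MSTRG.25931.2 near Srd5a2 is bright in all 6 tract-rich libraries.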

How the data were processed

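RNA of 16 libraries was sequenced (Illumina). The authors deposited 1 table of lncRNA transcripts and 1 of mRNA transcripts, with raw counts per library and FPKM values, per the file headers. The tools fastp and HISAT2 and the build GRCm38 are listed, with no roles, in the submitters' processing notes. The assembler and the counter were not given in the sources used here. FPKM, in the authors' unit, served only to check which count column belongs to which library (totals implied by FPKM and by counts differed by at most 0.0418%). 18 other per-sample columns were not used. 14 count columns matched a library title and 2 matched a group only.

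Counts totalled 13350585 to 20531032 per library in the mRNA table and 3550737 to 5828645 in the lncRNA table, of which 18304 to 27803 fell on the assembled transcripts. Ensembl transcripts were summed by gene and all others kept apart, giving 76125 lncRNA features. edgeR 4.0.16 (R 4.3.3, limma 3.58.1; robust quasi-likelihood fit, group as factor, filterByExpr) used library sizes and TMM factors of the gene-level mRNA table, 15 libraries, and Benjamini-Hochberg adjustment over all features tested. A fold change is between group coefficients on the log2 scale. DESeq2 1.42.0 was an alternative. Positions are those of the tables, compared with RefSeq GRCm38.p6 for sequences and gene names. Limits from 0 counts cover counting error only, while SEs are those of the fit and include variation among libraries.

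Transcripts were named by rule: those past the threshold (the 12 largest changes in a direction), the 10 highest per length, the longest, the shortest and the 10 largest tract ratios, with the gene each overlaps or lies nearest to. The transcripts and lists were chosen with earlier results of these data known. 1 gene region is not reported here.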

Additional observations from a re-analysis of the deposited data

Results flagged for a closer look

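In 145 groups of 4 libraries, 22 values of named transcripts lay far from the other 3. The test marks about 1 in 20 groups by chance, and groups with no library above 3 counts were not tested. The 10 transcripts with the largest tract ratios were named for being high in tract-rich libraries, so their flags in those libraries follow from that choice. The 22 can therefore not be set against the chance rate. 10 of the 22 values were resveratrol 4. There MSTRG.52846.1 (Cuzd1) was at 140.2 CPM against 0 to 1.658 CPM in the other resveratrol libraries, MSTRG.33336.1 (Pcsk2) at 88.81 CPM, MSTRG.43641.1 at 55.5 CPM, MSTRG.22445.1 (near Cldn1) at 50.53 CPM, MSTRG.3505.2 (Smyd3) at 43.66 CPM, MSTRG.51724.1 (Chrdl2) at 20.12 CPM, MSTRG.2793.2 (near Zfp648) at 19.78 CPM and MSTRG.9836.1 (near Ypel2) at 16.01 CPM. MSTRG.18121.1 (near Haus4) was at 9.957 CPM there against 0.128 to 0.2072 CPM, and MSTRG.11319.1 (Ncoa1) at 5.517 CPM against 11.37 to 12.36 CPM. In resveratrol 2, MSTRG.23277.12 (Cyyr1) was at 34.67 CPM against 0 in the other 3.

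4 were normal diet 2, the one normal diet library rich in ciliated-cell transcripts: MSTRG.25931.2 (near Srd5a2) at 22.1 CPM, MSTRG.52846.1 at 2.693 CPM, MSTRG.2793.2 at 1.423 CPM and MSTRG.51724.1 at 0.254 CPM, against 0.1075 CPM or less in the other 3. The rest were single values in libraries that are not tract-rich by the rule used here. MSTRG.5576.1, the shortest transcript, was at 2.393 CPM in resveratrol 1 against 0 in the other 3, and MSTRG.102.4 (Sntg1) at 38.06 CPM in normal diet 1 against 26.52 to 27.55 CPM. In metformin 1, the one metformin library not rich in ciliated-cell transcripts, MSTRG.25479.1 (Kat2b) was at 21.31 CPM against 12.67 to 13.32 CPM and MSTRG.42369.1 (Kmt2e) at 30.55 CPM against 25.1 to 25.71 CPM. HFD 3 was low for MSTRG.53625.81 (4.188 CPM against 6.936 to 7.226 CPM) and MSTRG.28640.1 (1.414 CPM against 1.901 to 1.997 CPM), and HFD 1 for MSTRG.12303.1 (1.272 CPM against 1.571 to 1.593 CPM).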

How the results depend on the processing

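For HFD against normal diet the 33 assembled transcripts past the threshold became 17 of 147 with all 16 libraries, resveratrol 4 included. With the lncRNA table's own scaling they became 16 of 151. Over all features, 5597 of 24046 became 2951 of 22856 and 2182 of 23934. Under the other alternatives the 33 stayed within 1.5 times, from 24 to 38 without 1 library. For metformin the 7 became 0 with all 16 libraries, 1 with the ciliated score and 3 with the lncRNA table's scaling. They became 4 with no filter and 16 with DESeq2. Over all features, 1239 of 24046 became in turn 9 of 22856, 119 of 24046, 504 of 23934, 255 of 75110 and 2463 of 23877. The libraries not rich in tract transcripts leave 1 metformin library, so no count is given for that fit. Leaving out 1 library gave 0 to 12: 2 without HFD 1, 0 without HFD 2 or 3, 12 without metformin 1, 3, 1 and 4 without metformin unmatched, 2 and 4, and 4 without resveratrol 1. For resveratrol the 4 became 1 with all 16 libraries and 0 with libraries not rich in tract transcripts. They became 11 with the ciliated score, 0 with the lncRNA table's scaling, 2 with no filter and 8 with DESeq2. Over all features, 537 of 24046 became in turn 340 of 22856, 25 of 26076 and 992 of 24046. The last 3 settings gave 95 of 23934, 88 of 75110 and 1418 of 16919. Leaving out 1 library gave 0 to 13 transcripts: 13 without HFD unmatched, and 0 without HFD 1, 2 or 3 or resveratrol 1 or 3. Metformin against resveratrol stayed at 0 except for 1 with DESeq2. For any difference the 22 became 5 with all 16 libraries, 9 without the tract-rich ones, 8 with the lncRNA table's scaling and 13 with no filter, and 12 to 23 without 1 library (12 without HFD 1 or 3, 13 without HFD 2, 14 without normal diet 4). Over all features, leaving out 1 library gave 17 to 1966 for metformin and 1 to 1498 for resveratrol. For any difference, 2896 of 24046 features became 958 of 22856 with all 16 libraries. They became 1155 of 23934 with the lncRNA table's scaling and 1580 of 75110 with no filter. The cause of these shifts was not tested. 9 of the 33 HFD changes were tested and passed under every alternative: MSTRG.11319.1, MSTRG.27889.1, MSTRG.28136.2, MSTRG.28640.1, MSTRG.28846.1, MSTRG.38045.1, MSTRG.42369.1, MSTRG.47888.1 and MSTRG.53625.81. Of these 9, MSTRG.28136.2 had few counts outside HFD and entered the tests mainly through the HFD libraries, where it was high. 1 of the 33 changed sign: MSTRG.10615.6, inside Map3k3, was at -0.37 (log2) and 0.0627 with the lncRNA table's scaling. The 48 tract-specific transcripts became 60 at a ratio of 5, 41 at 20 and 45 with 3 counts as the lowest level throughout. No paired analysis was possible because the labels state no pairing of libraries across groups, and the numbers used here follow accession order and only name libraries.

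65 transcripts failed the filter on low counts in the 15 libraries, 11 of them with no count there. 43 of the 65 were tract-specific, with their highest level mostly in resveratrol 4, which was not in that fit, and the other 22 had 16 to 1391 counts over all 16 libraries. Values near 0.05 CPM are single counts. With 3 or 4 libraries a group, p-values that miss the threshold do not show equal levels. The HFD libraries other than HFD unmatched had the highest macrophage markers and 3 of 4 metformin libraries were tract-rich, so diet, drug and tissue make-up cannot be told apart where they move together.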

Other observations

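MSTRG.8149.24 and MSTRG.8149.23, inside Ebf1, had the same outer positions and differed by 4 bases in length, and the counts of the second, 1391 in all, came from resveratrol 3 alone. In that library the 2 transcripts had 39.3 and 89.1 CPM. MSTRG.18121.1 and MSTRG.18121.2, 3747 bases from Haus4, were each 422 bases long and were at 9.96 and 5.18 CPM in resveratrol 4, where Haus4 was at 102 CPM against 4.95 to 23.5 CPM elsewhere. MSTRG.62256.1, on the Y chromosome and 979356 bases from the nearest mRNA gene, was at 2.15 CPM in resveratrol 4, 0.0589 to 0.965 CPM in the 5 ciliated-rich libraries and 0.0772 CPM or less in the other 10. These transcripts were chosen after their values were seen.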
